A study of Mus musculus with 9 samples.

Results

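The 108 genes described here are those whose transcripts were lower after 12 h with lipopolysaccharide (LPS) but had fallen less or not at all after 1 h, in cultures of BV2, a mouse line derived from microglia and immortalized. They were chosen from group means of log2(FPKM + 1), where FPKM is a fragment count divided by the length of the transcript and by the size of the library. A gene had to have a mean of at least 1 FPKM over the 9 libraries, a 12 h mean at least 1 log2 unit below the 0 h mean, and a 1 h mean less than 0.7 log2 units below it. Of the 5643 genes at or above that level, 155 (2.75%) met the threshold at 12 h, and 27 of these had already fallen by 0.7 or more at 1 h. Of the remaining 128 genes, 20 were left out by name: 6 Slc genes, 3 Zfp genes and the 11 genes Abca9, Abcd2, Apoe, Cd83, Egr3, Entpd1, Ltc4s, Mef2c, Mertk, Nr4a1 and Pmaip1. The other 108 are called late-fall genes below.

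There were 3 groups of 3 libraries each: untreated BV2 cells (0 h), and cells kept with LPS at 200 ng/ml for 1 h or for 12 h. BV2 cells are a single transformed line, and no primary microglia were measured. No label tells if each library was its own culture, so the spread between them may be technical. Untreated cells at 1 h and at 12 h were not analysed here, and the effect of LPS and that of time in culture cannot be told apart.

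LPS, the endotoxin of Gram-negative bacteria, is sensed by Toll-like receptor 4, which sets off NF-kB, MAP kinase and interferon signaling in microglia. The level of a transcript reflects both its synthesis and its decay, and a long-lived transcript declines only over hours once its synthesis ends. Genes that hold back growth, that mark resting microglia or that serve lysosomes and lipid metabolism are among those known to change in stimulated macrophages.

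Because both differences from 0 h chose the genes, their values at 0 h, 1 h and 12 h are given as a description, with no test. The 12 h difference below means the 12 h mean minus the 0 h mean on the log2(FPKM + 1) scale, and the 1 h difference is formed the same way. Adding 1 before taking the log shrinks the difference of genes near 0, so the highest FPKM ratios are given as well. RNA came from whole cultures, in which fewer cells expressing a gene and less of its RNA per cell cannot be told apart.

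The summed FPKM of the listed genes was between 195872 and 198075 in the 0 h libraries, 203515 and 205413 at 1 h, and 223720 and 228207 at 12 h. The listed genes are a selection: none had a deposited q-value above 0.09993 for a difference among these libraries. Adjusted p-values and shares of tested genes below therefore cover genes already selected for a difference. They leave out genes that were not listed. Of 17 microglia and macrophage markers, 12 were listed, and their summed FPKM was 1270 to 1370 at 0 h, 1360 to 1390 at 1 h and 1340 to 1420 at 12 h. This sum hides moves in opposite directions. Mean Cd14 rose from 62.3 FPKM at 0 h to 182 at 1 h and 247 at 12 h. Itgam went from 27.9 FPKM at 0 h to 70.3 at 12 h, while C1qc fell from 5.48 to 1.26. No marker of astrocytes, neurons, fibroblasts or lymphocytes was listed, and the only oligodendrocyte marker, Olig2, reached at most 0.0841 FPKM.

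As a set the late-fall genes had a median 12 h difference of -1.18, with a range from -2.37 to -1.0, against a median of 0.03 over all 5643 genes. Their median 1 h difference was -0.24, with a range from -0.69 to 0.21, against -0.03 over all genes. The median level was 9.98 FPKM at 0 h, 8.24 at 1 h and 3.30 at 12 h, and 18 genes had a mean under 1 FPKM at 12 h. The ratio of mean FPKM at 0 h to that at 12 h was highest for Cxcr4 (11), Asb10 (9.39), Rtn4rl1 (8.74), Mxd4 (8.01), Ephx1 (7.29), Cmbl (7.13), Myom3 (6.67) and Tns1 (6.59), an order unlike that on the log2(FPKM + 1) scale. Most of the loss came after the first hour, a pattern that the limit at 1 h favours. The 1 h difference was a median 20.3% of the 12 h difference. The share was under 25% for 65 genes, between 25% and 50% for 37, and 50% or more for 6.

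The sum of the 108 genes was 1695.6, 1631.1 and 1627.6 FPKM in the 0 h libraries, 1405.5, 1391.4 and 1413.6 at 1 h, and 610.94, 627.28 and 616.09 at 12 h. The 3 groups did not overlap in this sum, but its fall at 12 h follows from the rule that chose the genes. As a share of the listed FPKM it was 0.824% to 0.856% at 0 h, 0.677% to 0.695% at 1 h and 0.270% to 0.280% at 12 h. In all 108 genes each 12 h library was below each 0 h library, where 40.9% of all tested genes showed this, and each was below every 1 h library, where 44.2% did. This separation largely follows from the rule that chose the genes, and is no finding about them. At 1 h, 81 genes had all 3 libraries below the 0 h libraries (38.2% of all tested genes), 3 had all 3 above (26.8%), and 24 overlapped. The 3 above were Clec7a, Olfr111 and Phlpp1. A 1 h mean above the 0 h mean was found in 10 late-fall genes, and in 42.8% of all tested genes. The rule used the 0 h and 1 h means as well, so these 1 h counts are also a description and no finding about the genes. The median SD between libraries on the log2 scale was 0.0602 at 0 h, 0.0564 at 1 h and 0.0728 at 12 h, against 0.0499, 0.0473 and 0.0489 over all tested genes.

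**Figure D1:**
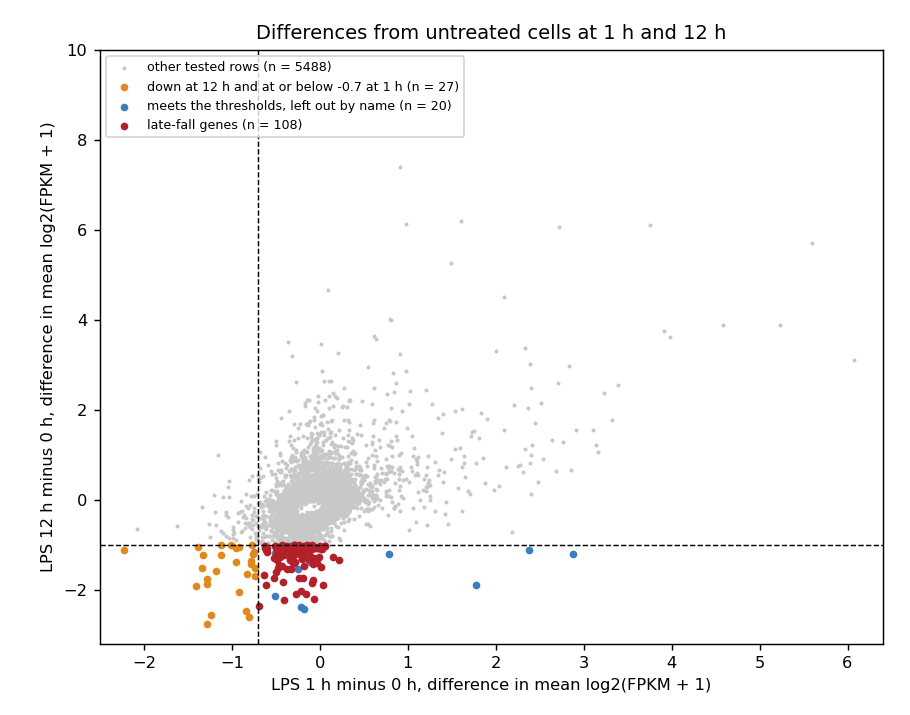
Each point is a gene with a mean of at least 1 FPKM, placed by its 1 h difference (x axis) and its 12 h difference (y axis) in mean log2(FPKM + 1). The 108 late-fall genes (red) lie below the horizontal line at -1 and to the right of the vertical line at -0.7. The 27 genes to the left of it (orange) had fallen by 0.7 or more at 1 h. The 20 left out by name are blue.

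Several genes stood close to the limits of the rule. Just inside the 12 h threshold were Dync2li1 at -1.001, Sptssa at -1.007 and Rbl2 at -1.01, and just outside were Ctdspl at -0.997, Adgrl1 at -0.995 and Hspb7 at -0.993. Just inside the 1 h threshold were Ephx1 at -0.693, Lbh at -0.637 and Kctd12b at -0.625, and just outside were Rin2 at -0.734, Rnf144b at -0.744 and 5031414D18Rik at -0.755. At the limit on level, Myom3 with a mean of 1.02 FPKM, Cmbl with 1.11 and Tns1 with 1.17 were inside, and Dgkg with 0.914, Myadml2 with 0.897 and Klrd1 with 0.632 were outside. The 27 genes that had fallen by 0.7 or more at 1 h had a median 1 h difference of -0.95 and a median 12 h difference of -1.43.

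Promoters of the late-fall genes are shown here as a description, since the rule itself chose genes that moved alike. The stretches printed are examples chosen after the motif search. RefSeq start sites on GRCm38.p6 gave 114 windows for 85 of the 108 genes, each from 250 bases before to 50 bases after a start. The motifs were searched on both strands. The letters CACGTG, the E-box bound by MAX and its partners and contained in the lysosomal TFEB motif TCACGTG, were in 7.02% of the 114 windows, 10.6% of 5954 windows of tested genes and 7.15% of all 32851 windows. The longer TCACGTG was in 4.39%, 6.21% and 3.77%. GAGGAAG, a core of the motif of the myeloid factor PU.1, was in 14.9%, 14.5% and 13.6%. CCAAT, common in promoters of mitotic genes, was in 30.7%, 37.8% and 37.4%, and TTTGAA, the core of the cell cycle homology region, was in 15.8%, 12.0% and 17.9%. TGTTTAC, bound by FOXO factors, was in 4.39%, 2.55% and 3.65%. CAGACA, bound by SMAD proteins, was in 16.7%, 15.6% and 21.0%, and a loose NF-kB motif, GGG and CC with 5 bases of any kind between them, was in 64.0%, 69.3% and 50.8%. In the 30-base stretches below, given 5′ to 3′ along the gene, capitals mark the motif as read on that strand. They show the E-box in 3 of the 8 late-fall genes that hold it (the others were Pfkm, Pbxip1, Pnpla7, Cdkn2c and Pdpr), and the FOXO letters in 1 of 5 (the others were Sesn1, Pnpla7, Stx2 and Scrn3). In capitals they show the PU.1 core in 3 of 14 genes and CCAAT in 2 of 29. Further motifs within a stretch were left in small letters, such as the PU.1 core CTTCCTC in that of Aspm and CAGACA in that of C1qc. A match in these windows is a description of letters only.
Mxd4 (chr5:34187912-34187941, minus strand): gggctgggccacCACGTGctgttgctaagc
Ctsf (chr19:4855074-4855103, plus strand): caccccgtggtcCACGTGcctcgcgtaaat
Sgsh (chr11:119355522-119355551, minus strand): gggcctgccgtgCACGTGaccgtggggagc
Rasgrp3 (chr17:75435844-75435873, plus strand): ggaaagaatagGAGGAAGtgggcctgccat
C1qc (chr4:136893090-136893119, minus strand): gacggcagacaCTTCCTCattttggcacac
Gm2a (chr11:55097938-55097967, plus strand): cagctccgcccCTTCCTCcgctggctctgc
Sepp1 (chr15:3270942-3270971, plus strand): cagagggcgagGTAAACAacagggctataa
Aspm (chr1:139454648-139454677, plus strand): cgccgcttcctcATTGGccaggcgctttcg
Cenpf (chr1:189688140-189688169, minus strand): ctctcgccatggCCAATgggcgtggaggct

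The median GC content of the promoter windows was 60.0% for the late-fall genes and 61.7% for the tested genes, and the median ratio of observed to expected CpG was 0.649 and 0.774. The genes lay on 19 chromosomes. Klhl6 and Klhl24 were neighbours, and 1 protein-coding gene separated Phlpp1 from Kdsr and Rnf167 from Eno3.

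A group of 12 genes was placed under growth and cell cycle regulation after values were seen, with a median 12 h difference of -1.31 and a median level that went from 11 FPKM at 0 h to 9.74 at 1 h and 3.74 at 12 h. Mxd4 encodes a MAX partner that represses MYC targets, and its E-box is shown above. It was at 9.96, 8.08 and 8.83 FPKM in the 0 h libraries, 6.57, 5.12 and 8.12 at 1 h and 1.17, 1.15 and 1.04 at 12 h, a 12 h difference of -2.23 and an FPKM ratio of 8.01 between 0 h and 12 h. The third 1 h library lay within the 0 h range, whereas all 12 h libraries were far below both earlier groups. Pdcd4, which inhibits the translation helicase eIF4A, was at 10.8, 10.6 and 9.16 FPKM at 0 h, 8.68, 8.89 and 8.24 at 1 h and 1.66, 1.79 and 1.76 at 12 h, with a 12 h difference of -2.02. Deptor, which binds and inhibits mTOR, was at 9.19, 9.75 and 9.04 FPKM, then 8.99, 8.43 and 8.65, then 1.81, 2.0 and 1.80, with a 12 h difference of -1.85 of which 4.97% was present at 1 h. The 1 h libraries of both genes were below all 0 h libraries, but far nearer to them than to the 12 h libraries.

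Sesn1 encodes a sestrin, a stress-induced inhibitor of mTORC1. It was at 16.6, 15 and 15.5 FPKM at 0 h, 10.9, 11 and 10.4 at 1 h and 4.96, 4.53 and 4.02 at 12 h, and 31.3% of its 12 h difference of -1.60 was present at 1 h. Its paralog Sesn2 went the other way at 12 h, from 5.42 to 13.6 FPKM, a difference of 1.18 ± 0.057 (SE, adjusted p = 1.2e-10). Ccng2, the cyclin G2 gene known as a FOXO target in non-dividing cells, was at 16.8, 15.8 and 16.6 FPKM at 0 h, 11.1, 11.6 and 10.6 at 1 h and 5.84, 5.72 and 6.63 at 12 h. It had the largest share of its fall at 1 h in this group, 40.3%. Phlpp1, a phosphatase that removes an activating phosphate from AKT, stood at the other end. It was at 11.7, 11.9 and 12 FPKM at 0 h, 12, 12.6 and 12.5 at 1 h, all above the 0 h libraries, and 5.05, 5.22 and 5.51 at 12 h. Its paralog Phlpp2 had a 12 h difference of -0.51 ± 0.053 (SE, adjusted p = 5.02e-07).

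The group also held genes of the retinoblastoma pathway. Cdkn2c, the CDK4/6 inhibitor p18, was at 6.93, 6.22 and 6.92 FPKM at 0 h, 5.59, 6.0 and 5.48 at 1 h and 2.37, 2.41 and 2.92 at 12 h. Rbl2, the pocket protein p130 of resting cells, was at 7.01, 6.77 and 7.18 FPKM at 0 h, 5.69, 5.42 and 5.44 at 1 h and 2.75, 3.23 and 2.92 at 12 h. Tfdp2, a dimerization partner of E2F factors, was at 7.28, 8.62 and 7.82 FPKM at 0 h, 7.31, 7.13 and 6.87 at 1 h and 2.56, 2.69 and 2.44 at 12 h. In each the 12 h libraries were well apart from the others, and for Tfdp2 the 0 h and 1 h libraries overlapped. Mean levels at 0 h and 12 h were 15.9 and 5.36 FPKM for Bmyc, a MYC relative without the DNA-binding domain, 14.5 and 5.40 for Ctdsp2, a phosphatase of the RNA polymerase II tail, and 13.9 and 6.22 for Klhl24, a cullin 3 adaptor. Tfdp2 and Klhl24 are not known as restraints on growth by themselves.

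Relatives of these genes, chosen after their values were seen, were read from the limma fit over all tested genes with Benjamini-Hochberg adjustment. Rb1 fell, with a 12 h difference of -0.93 ± 0.05 (SE, adjusted p = 4.05e-10) beside -1.01 for Rbl2, and Tfdp1 fell, with -0.25 ± 0.039 (SE, adjusted p = 2.81e-05). Among other CDK inhibitors Cdkn2b rose most, with 1.31 ± 0.092 (SE, adjusted p = 6.89e-09), from 0.776 to 3.43 FPKM. Cdkn1a rose, with 0.67 ± 0.056 (SE, adjusted p = 4.86e-08), Cdkn2d rose, with 0.54 ± 0.047 (SE, adjusted p = 8.16e-08), and Cdkn1b fell, with -0.60 ± 0.08 (SE, adjusted p = 6.28e-06). The difference of Cdkn2a was small, 0.09 ± 0.037 (SE, adjusted p = 0.0343), and negative under quantile normalization; without the first or the third untreated library, or the first or the second 12 h library, its adjusted p was 0.061 to 0.115. Among MAX-network genes Mxd3 fell, with -0.84 ± 0.103 (SE, adjusted p = 2.79e-06), as did Mxi1, with -0.82 ± 0.037 (SE, adjusted p = 4.67e-11), and Mnt, with -0.50 ± 0.042 (SE, adjusted p = 5.51e-08), while Mlx rose, with 0.66 ± 0.042 (SE, adjusted p = 2.62e-09). The small difference of Mxd1, 0.18 ± 0.064 (SE, adjusted p = 0.0198), had an adjusted p of 0.0513 to 0.12 without the third untreated, the first 12 h or the third 12 h library. That of Max, 0.10 ± 0.036 (SE, adjusted p = 0.0166), had one of 0.0588 and 0.0777 without the third 12 h and the second untreated library, and was negative under quantile normalization. Myc did not pass the test, with 0.17 ± 0.099 (SE, adjusted p = 0.116), but did under quantile normalization (adjusted p = 0.0486) and without the second 12 h library (adjusted p = 0.0263). In the list of the MYC and MAX network, 5 of 9 tested genes were lower, 3 higher and 1 without a call at 12 h. Over all 5643 tested genes 40.6% were called lower and 41.1% higher at 12 h, which is the background for the counts of each list below.

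Of the deposited pathway labels, Cell cycle held 3 late-fall genes (Cdkn2c, Rbl2 and Tfdp2) among 73 tested, of which 39 were lower, 23 higher and 11 without a call at 12 h. FoxO signaling also held 3 (Ccng2, Rbl2 and S1pr1) among 73 tested, with 29 lower, 29 higher and 15 without a call. The p53 signaling label held Sesn1 and Ccng2 among 44 tested, with 17 lower and 20 higher.

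The 4 mitotic genes were Psrc1, Aspm, Cenpf and Nusap1, all of the spindle or centromere, with 12 h differences from -1.06 to -1.02. Aspm, which focuses spindle poles, was at 9.88, 10.2 and 9.76 FPKM at 0 h, 8.55, 7.83 and 8.51 at 1 h and 4.36, 4.74 and 3.90 at 12 h. Nusap1, a microtubule-bundling protein, was at 22.1, 22.3 and 22 FPKM at 0 h, 24.4, 20.8 and 21.5 at 1 h and 11.2, 10.9 and 9.09 at 12 h. Cenpf, a kinetochore protein, was at 10.8, 12.4 and 11.3 FPKM at 0 h, 11, 10.1 and 9.98 at 1 h and 5.30, 5.58 and 4.41 at 12 h. In these genes the third 12 h library was the lowest, and without it all 4 missed the threshold of -1. In the wider list of G2/M and mitosis genes, 48 of 50 tested genes were lower and 1 higher at 12 h, with a median difference of -0.49, whereas at 1 h 13 were lower and 5 higher. Among all tested genes 34.9% were called lower and 24.1% higher at 1 h. Of 31 tested genes of DNA replication and S phase, 22 were lower and 6 higher at 12 h, none of them a late-fall gene.

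The 10 lysosomal genes had a median 12 h difference of -1.12. Ctsf, a cysteine cathepsin with an E-box, but not the longer TCACGTG, in its promoter as shown above, was at 6.33, 6.03 and 5.63 FPKM at 0 h, 4.89, 4.61 and 4.76 at 1 h and 2.08, 1.42 and 1.52 at 12 h. Ctsh, an aminopeptidase cathepsin, was at 11.4, 9.63 and 11.1 FPKM at 0 h, 8.77, 7.41 and 8.60 at 1 h and 3.93, 4.14 and 4.27 at 12 h. Each time group was apart from the next in both genes. Sgsh, the heparan sulfate sulfamidase, was at 3.16, 3.05 and 2.63 FPKM at 0 h, 1.71, 1.84 and 2.10 at 1 h and 0.664, 0.687 and 0.543 at 12 h. Arsb, the sulfatase of dermatan and chondroitin sulfate, was at 36.5, 35.6 and 36.7 FPKM at 0 h, 26, 28.7 and 28.1 at 1 h and 16.4, 17.7 and 17.3 at 12 h. Gm2a, the activator protein that presents GM2 ganglioside to hexosaminidase, was at 31.5, 30.9 and 30.7 FPKM at 0 h, 22.1, 22 and 25.4 at 1 h and 12.6, 12.9 and 14.1 at 12 h. These 3 genes had between 34.9% and 36.9% of their fall at 1 h, and their 3 groups did not overlap.

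Tfeb encodes the factor that drives lysosomal genes through the TCACGTG motif. The late-fall genes with that motif were Sgsh, Pfkm, Pbxip1, Pnpla7 and Cdkn2c, and of these only Sgsh is in the lysosomal group. Tfeb was at 4.98, 4.20 and 4.73 FPKM at 0 h, 4.07, 4.16 and 3.90 at 1 h and 1.98, 1.78 and 1.35 at 12 h. Its relative Mitf fell at 12 h, with a difference of -0.67 ± 0.056 (SE, adjusted p = 4.87e-08), while Tfe3 did not pass the test, with 0.09 ± 0.045 (SE, adjusted p = 0.0804), but did under quantile normalization. Atp6v0d2, a proton pump subunit made in osteoclasts and macrophages, was at 3.04, 2.74 and 3.03 FPKM at 0 h, 1.70, 2.23 and 1.59 at 1 h and 0.860, 0.766 and 0.511 at 12 h. Its broadly expressed counterpart Atp6v0d1 was at 110.0 FPKM at 0 h and 117 at 12 h, a difference of 0.09 ± 0.033 (SE, adjusted p = 0.0178). It had the opposite sign under quantile normalization, and an adjusted p of 0.102 and 0.062 without the second untreated and the third 12 h library. Mean levels at 0 h and 12 h were 13.4 and 5.96 FPKM for Rnf167, a ubiquitin ligase of endosomes and lysosomes, 6.66 and 2.72 for Abca2, a lipid transporter, and 17.4 and 8.14 for Prcp, a carboxypeptidase.

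Among other cathepsins Ctsb rose, with a 12 h difference of 0.64 ± 0.025 (SE, adjusted p = 1.34e-11), as did Ctsz, with 0.54 ± 0.023 (SE, adjusted p = 2.42e-11), Ctsd, with 0.30 ± 0.027 (SE, adjusted p = 9.26e-08), Ctsk, with 0.29 ± 0.049 (SE, adjusted p = 5.63e-05), and Ctsc, with 0.28 ± 0.03 (SE, adjusted p = 7.04e-07). Small differences of 0.07 ± 0.027 (SE, adjusted p = 0.0313) for Ctsl and -0.07 ± 0.028 (SE, adjusted p = 0.0357) for Ctsa did not pass the test when any of several single libraries was left out (adjusted p of 0.0501 to 0.0935 for Ctsl and 0.0582 to 0.177 for Ctsa), and that of Ctsl had the opposite sign under quantile normalization. The deposited Lysosome label held 7 late-fall genes, 6.48% of the 108 against 1.29% of tested genes, but over all its 73 tested genes 28 were lower, 35 higher and 10 without a call at 12 h, with a median difference of 0.07. The Glycosaminoglycan degradation label held Sgsh and Arsb among 5 tested genes. Of these 4 were lower and 1 higher, with a median of -1.04, the value of Arsb. Sgsh and Arsb met the 12 h threshold of the rule, as did Hyal1, which had also fallen by 0.7 or more at 1 h. This count and median therefore largely follow from the rule, and are no finding about the label. Phagosome, with Clec7a and Atp6v0d2, had 11 lower and 65 higher among 80 tested.

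Receptors and surface proteins numbered 12, with a median 12 h difference of -1.32. Cxcr4, the receptor for the chemokine CXCL12, was at 5.97, 5.65 and 4.63 FPKM at 0 h, 5.57, 4.25 and 4.44 at 1 h and 0.463, 0.456 and 0.553 at 12 h. Its FPKM ratio of 11 between 0 h and 12 h was the highest among the 108 genes, and its 0 h and 1 h libraries overlapped. S1pr1, a receptor for sphingosine 1-phosphate that guides cell exit from tissues, was at 3.31, 2.99 and 3.05 FPKM at 0 h, 1.95, 1.93 and 2.05 at 1 h and 0.442, 0.502 and 0.535 at 12 h. Cysltr1, a cysteinyl leukotriene receptor, was at 6.24, 8.23 and 7.34 FPKM at 0 h, 5.43, 4.51 and 4.63 at 1 h and 2.96, 3.29 and 2.55 at 12 h. For S1pr1 and Cysltr1 the 3 time groups were apart, and 31.9% and 46.2% of the fall was present at 1 h. Among 41 tested G protein-coupled receptors and their kinases, 21 were lower and 15 higher at 12 h, with a median of -0.23.

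The set held a pair of C-type lectins, which are sugar-binding receptors of myeloid cells. Clec7a, the beta-glucan receptor dectin-1, was at 14.9, 13.7 and 13.2 FPKM at 0 h, 16.7, 15.8 and 16.4 at 1 h and 4.91, 4.43 and 5.37 at 12 h. All its 1 h libraries were above the 0 h libraries, and its 1 h difference of 0.21 was the highest of the 108. Clec10a, a galactose-type lectin, was at 7.47, 5.60 and 6.33 FPKM at 0 h, 4.85, 4.88 and 5.44 at 1 h and 1.53, 2.01 and 1.93 at 12 h. Clec4d and Clec4e, receptors of the same superfamily for mycobacterial glycolipids, rose, with 12 h differences of 2.49 ± 0.057 (SE, adjusted p = 3.67e-14) and 1.71 ± 0.048 (SE, adjusted p = 3.05e-13), as did Clec4n, with 0.74 ± 0.083 (SE, adjusted p = 1.15e-06), and Clec5a, with 0.46 ± 0.053 (SE, adjusted p = 1.33e-06). Of 46 tested immunoreceptors, lectins and Fc receptors, 17 were lower and 25 higher at 12 h.

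Ocstamp, which takes part in the fusion of osteoclast precursors, was at 27.2, 23.4 and 25.2 FPKM at 0 h, 14.6, 15.5 and 18.4 at 1 h and 5.59, 6.27 and 6.42 at 12 h, with all 3 groups apart. Olfr111, an olfactory receptor gene, was at 4.19, 4.84 and 4.02 FPKM at 0 h, 5.0, 4.89 and 4.93 at 1 h and 1.22, 1.04 and 1.39 at 12 h. Nectin1, an adhesion molecule, was at 9.83, 10.4 and 9.85 FPKM at 0 h, 6.33, 5.82 and 6.35 at 1 h and 4.73, 4.28 and 4.28 at 12 h. The last had 60.8% of its fall at 1 h, the largest share of the 108, while Olfr111 was slightly higher at 1 h. Mean levels at 0 h and 12 h were 2.89 and 0.331 FPKM for Rtn4rl1, a Nogo receptor homolog, 8.25 and 2.75 for Ttyh3, a tweety-family membrane protein, 4.92 and 1.78 for Hfe, the hemochromatosis protein that acts in iron sensing, and 13.6 and 6.25 for Plxnc1, a semaphorin receptor.

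**Figure D2:**
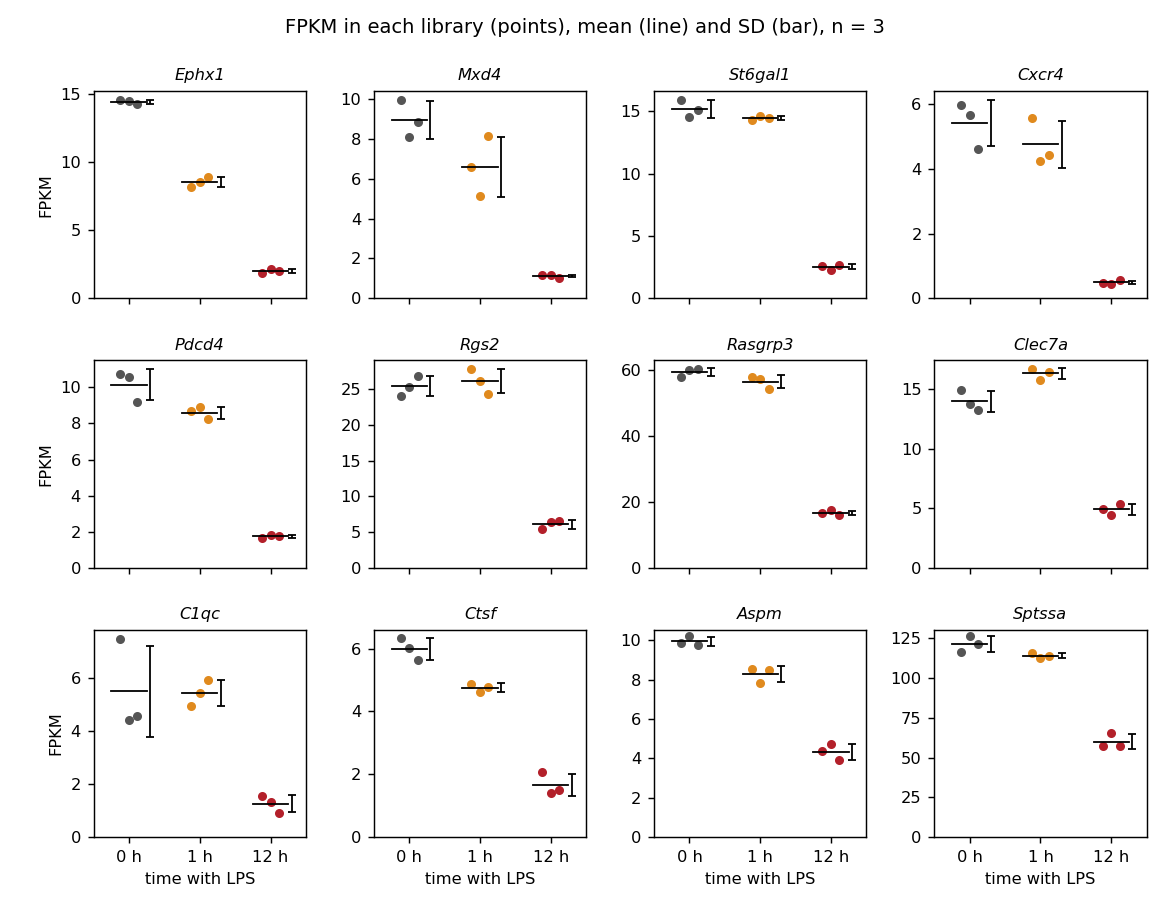
FPKM in each of the 9 libraries for 12 late-fall genes (y axes start at 0), against time with LPS; points are libraries, horizontal lines group means and bars the SD of 3 libraries. In each gene the 12 h libraries lie below all others; Clec7a is highest at 1 h, and Ephx1 had already fallen in part by 1 h.

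Secreted proteins and protease inhibitors, 9 genes, had the lowest median 12 h difference of the role groups, -1.47. C1qc, a chain of the first complement component and a product of resting microglia, was at 7.46, 4.40 and 4.57 FPKM at 0 h, 4.92, 5.41 and 5.91 at 1 h and 1.53, 1.33 and 0.921 at 12 h. The first 0 h library was well above the other 2, which were slightly below the 1 h libraries, and all 12 h libraries were lower. A PU.1 core lay in its promoter stretch above. C1qa was listed but below the limit on level, at 0.628 FPKM at 0 h and 0.0738 at 12 h. Sepp1, the selenoprotein P gene, was at 23.9, 22.9 and 22.7 FPKM at 0 h, 19.8, 20.1 and 20.8 at 1 h and 6.10, 6.34 and 6.30 at 12 h. Serpinb1a, an inhibitor of neutrophil serine proteases, was at 35.9, 35.2 and 35.6 FPKM at 0 h, 25.3, 23.8 and 24.2 at 1 h and 10.1, 9.90 and 9.89 at 12 h. Libraries of these genes lay close together within each time, and 10.8% of the fall of Sepp1 and 30.1% of that of Serpinb1a was present at 1 h.

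Igfbp4, which binds insulin-like growth factors, was at 64.2, 54 and 52.8 FPKM at 0 h, 48.1, 51.2 and 50.9 at 1 h and 19, 21.1 and 19.7 at 12 h. Angptl2, an angiopoietin-like protein, was at 22, 21.8 and 22.3 FPKM at 0 h, 14.9, 15.5 and 15.8 at 1 h and 8.12, 8.43 and 7.87 at 12 h. Il15, a cytokine for lymphocytes, was at 4.03, 3.46 and 3.95 FPKM at 0 h, 2.71, 2.89 and 1.65 at 1 h and 1.18, 1.62 and 1.32 at 12 h. The third 1 h library of Il15 stood apart below the other 2, and 50.3% of the fall was present at 1 h. Rnase4, a secreted ribonuclease, was at 10.2, 10.3 and 9.50 FPKM at 0 h, 8.07, 8.32 and 8.62 at 1 h and 2.38, 2.23 and 2.24 at 12 h. It shares a locus and first exons with Ang, which had a 12 h difference of -0.93 ± 0.093 (SE, adjusted p = 3.13e-07), so the split of reads between the pair is uncertain. Mamdc2 and Egfl7 had means of 3.89 and 11.8 FPKM at 0 h and 1.24 and 5.12 at 12 h.

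The 12 genes of intracellular signaling had a median 12 h difference of -1.19. Rasgrp3, an exchange factor for Ras and Rap, was at 58.1, 60.1 and 60.5 FPKM at 0 h, 58, 57.3 and 54.3 at 1 h and 16.5, 17.4 and 16 at 12 h. Rgs2, which shortens signaling by Gq-coupled receptors, was at 24.1, 25.3 and 26.9 FPKM at 0 h, 27.9, 26.2 and 24.4 at 1 h and 5.38, 6.38 and 6.54 at 12 h. Both were near their 0 h level at 1 h, and the FPKM ratio of 0 h to 12 h was 3.58 for Rasgrp3 and 4.17 for Rgs2. Among other RGS genes, Rgs1 rose at 1 h, with a 1 h difference of 1.46, and fell by 12 h, with -0.55 ± 0.039 (SE, adjusted p = 7.21e-09), while Rgs10 fell, with -0.82 ± 0.072 (SE, adjusted p = 8.29e-08), and Rgs14 rose, with 0.49 ± 0.055 (SE, adjusted p = 1.01e-06). Asb10, a SOCS-box protein, was at 6.72, 5.48 and 5.83 FPKM at 0 h, 4.99, 4.82 and 4.58 at 1 h and 0.649, 0.583 and 0.687 at 12 h. Arl4c, a small GTPase, was at 19.6, 18.1 and 16.7 FPKM at 0 h, 13.7, 14.6 and 14.4 at 1 h and 5.39, 5.76 and 5.54 at 12 h. Camk1, a calcium and calmodulin-dependent kinase, was at 78.1, 72.2 and 74.3 FPKM at 0 h, 74.8, 73.3 and 71 at 1 h and 36.7, 33.9 and 33.7 at 12 h. Of these, only Camk1 and Rgs2 had 1 h libraries that overlapped those at 0 h. Cdk19, a kinase of the Mediator complex, had mean levels of 6.29 FPKM at 0 h and 2.47 at 12 h, while its paralog Cdk8 did not pass the test, with a 12 h difference of 0.11 ± 0.052 (SE, adjusted p = 0.0606), but did without the third untreated library (adjusted p = 0.0429) or the third 12 h library (adjusted p = 0.0152).

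The other signaling genes were Klhl6, a cullin 3 adaptor of lymphoid and myeloid cells, the actin-binding protein Lsp1, Plekhg5, Pald1, Frmd4b and Kctd12b. Their 12 h differences lay between -1.47 for Plekhg5 and -1.08 for Kctd12b. In the list of Ras, Rap and Arf regulators, 20 of 42 tested genes were lower and 16 higher at 12 h, and in that of phosphoinositide and kinase signaling 30 of 74 were lower and 31 higher.

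Metabolic enzymes formed the largest role group, with 13 genes and a median 12 h difference of -1.12. Ephx1, the microsomal epoxide hydrolase, had the lowest 12 h difference of the 108 on the log2(FPKM + 1) scale, -2.37, and the fifth highest FPKM ratio. It was at 14.5, 14.5 and 14.2 FPKM at 0 h, 8.18, 8.54 and 8.93 at 1 h and 1.83, 2.13 and 1.97 at 12 h. The groups were far apart, and its 1 h difference was also the lowest, so that a pseudocount of 0.1 or 0.5, or leaving out the third untreated or the third 1 h library, put it past the limit at 1 h and out of the set. Mgst3, a microsomal glutathione transferase, was at 35.7, 31.4 and 32.1 FPKM at 0 h, 34.3, 31.9 and 33.9 at 1 h and 13.9, 13.7 and 17.7 at 12 h. Its 0 h and 1 h libraries overlapped. Mgst2 fell, with a 12 h difference of -0.50 ± 0.063 (SE, adjusted p = 3.5e-06). Of 35 tested genes of xenobiotic, redox and selenium metabolism, 21 were lower and 10 higher at 12 h, with a median of -0.36.

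Enzymes of lipid metabolism followed. Cpt1a, which admits fatty acids to mitochondria, was at 3.08, 3.33 and 2.97 FPKM at 0 h, 2.78, 2.69 and 2.33 at 1 h and 0.671, 0.902 and 0.765 at 12 h. Pnpla7, a lysophospholipase, was at 22, 21 and 19.7 FPKM at 0 h, 19.5, 19.3 and 18.7 at 1 h and 9.0, 9.06 and 9.06 at 12 h. Sptssa, a small subunit of serine palmitoyltransferase and the most abundant of the 108 at 0 h, was at 116, 127 and 122 FPKM at 0 h, 116, 112 and 114 at 1 h and 57.5, 65.4 and 57.1 at 12 h. At 1 h at most 16.3% of the 12 h difference was present in these 3 genes. Kdsr, which carries out the next step of sphingolipid synthesis, went from a mean of 6.19 FPKM to 2.44, while the catalytic subunit gene Sptlc2 rose, with a 12 h difference of 0.28 ± 0.037 (SE, adjusted p = 5.75e-06). Cpt2, the inner-membrane partner of Cpt1a, fell, with -0.66 ± 0.063 (SE, adjusted p = 1.82e-07). Echdc3, an enoyl-CoA hydratase relative, went from 14.6 to 9.30 at 1 h and 6.42 at 12 h. Of 68 tested genes of lipid and fatty acid metabolism, 40 were lower and 19 higher at 12 h, with a median of -0.38.

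The enzymes Pfkm, Eno3 and Adssl1 are the muscle-type forms of a family. Pfkm, muscle phosphofructokinase, was at 12.9, 13.5 and 14.1 FPKM at 0 h, 11.8, 11.7 and 11.8 at 1 h and 4.66, 5.29 and 5.34 at 12 h. Eno3, beta-enolase, was at 29.9, 26.3 and 26.7 FPKM at 0 h, 23.1, 23.9 and 22.4 at 1 h and 12.5, 11.3 and 11.7 at 12 h. Adssl1, the muscle adenylosuccinate synthase, was at 50.2, 46.2 and 48.6 FPKM at 0 h, 37.4, 37.9 and 38.6 at 1 h and 18.8, 19.1 and 18.2 at 12 h. In each gene the 3 groups did not overlap. Their widely expressed counterparts were more abundant on the FPKM scale, which is per length, and had differences nearer 0. Pfkl and Pfkp, at 49.9 and 67.6 FPKM at 0 h, had 12 h differences of -0.14 ± 0.03 (SE, adjusted p = 0.000496) and -0.13 ± 0.034 (SE, adjusted p = 0.00252). Eno1, at 2578 FPKM at 0 h, had a difference of 0.15 ± 0.023 (SE, adjusted p = 2.26e-05), and Adss, at 57.6 FPKM, did not pass the test, with 0.03 ± 0.036 (SE, adjusted p = 0.437); under quantile normalization both of these differences were negative. The deposited Glycolysis label, which held Pfkm and Eno3, had 10 genes lower and 16 higher among 27 tested at 12 h. Remaining enzymes were Pdpr, a regulator of pyruvate dehydrogenase phosphatase, from 8.57 to 3.50 FPKM, the hydrolase Cmbl, from 1.83 to 0.257, and Gamt. The last, which makes creatine, went from a mean of 3.65 to 1.34 FPKM. Gamt was at 3.82, 3.65 and 3.49 FPKM at 0 h and 3.77, 4.08 and 3.72 at 1 h. Its 12 h libraries were spread widely, at 2.045, 0.876 and 1.11 FPKM.

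**Figure D3:**
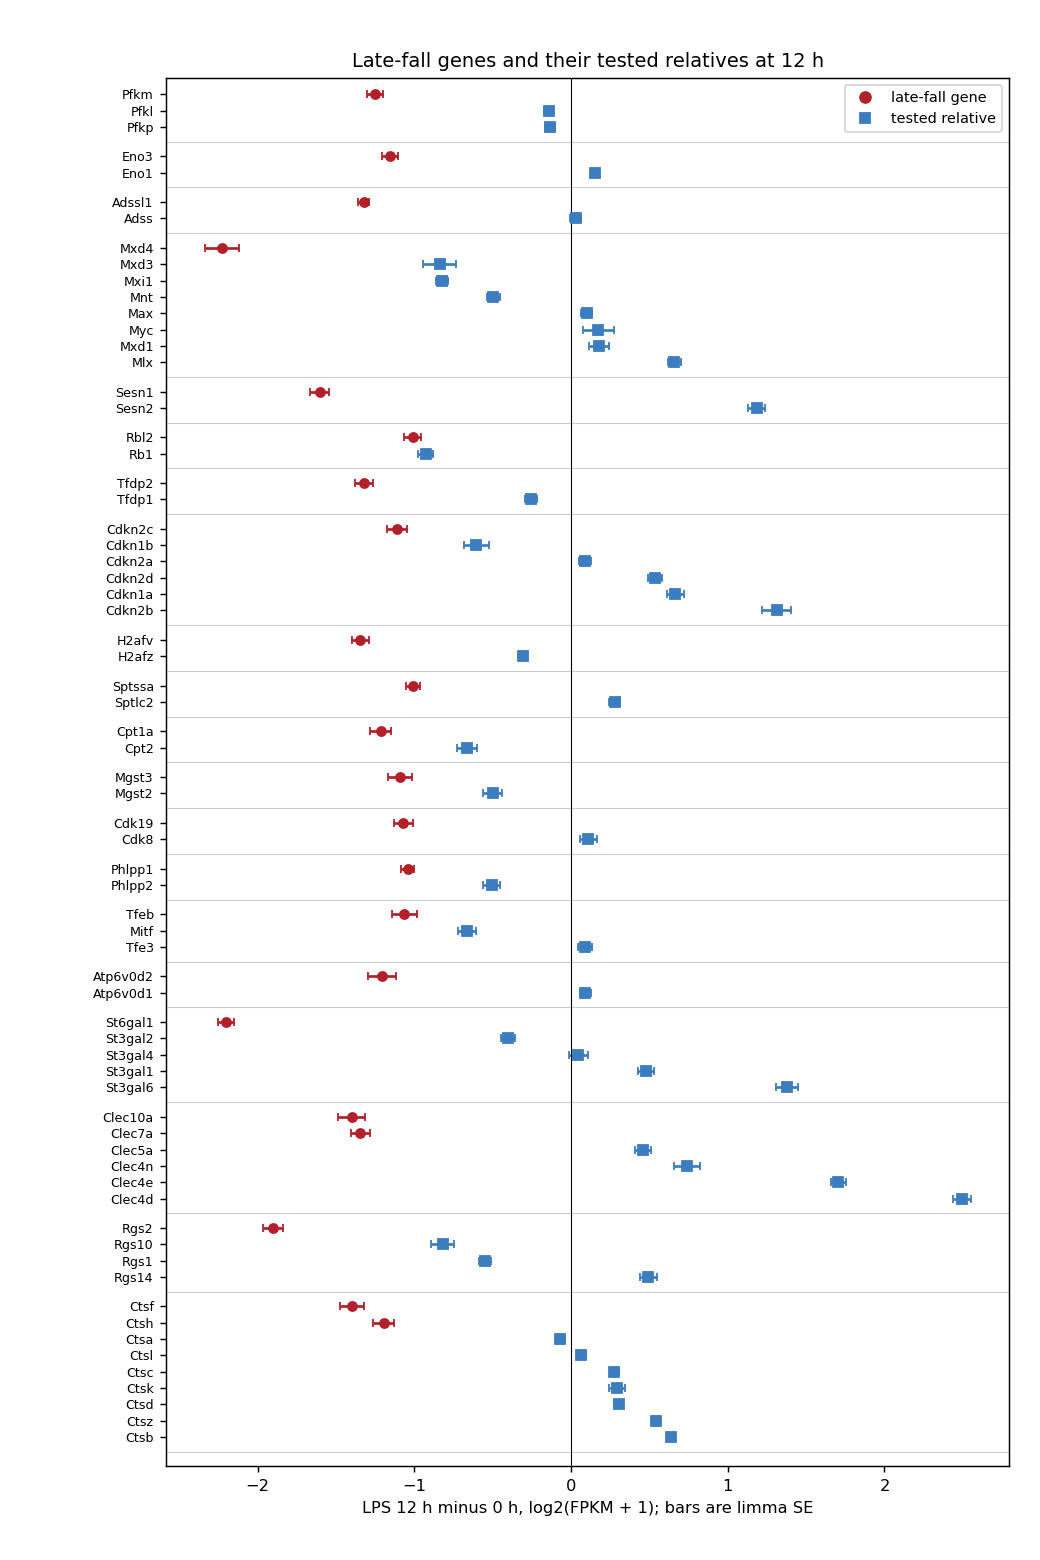
The 12 h difference (x axis, log2(FPKM + 1)) of 22 late-fall genes (circles) and their 46 tested relatives (squares) in 20 families, with the standard error from limma as bars. The late-fall genes were chosen for lying at or below -1; of the relatives 17 were called lower, 24 higher and 5 had no call, between -0.93 (Rb1) and 2.49 (Clec4d), and those of Eno1, Adss, Atp6v0d1, Ctsl, Cdkn2a and Max, near 0, were negative under quantile normalization.

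St6gal1 adds alpha-2,6-linked sialic acid to glycans, and was the late-fall gene with the lowest 12 h difference among the 3 glycan enzymes. It was at 16, 14.6 and 15.1 FPKM at 0 h, 14.3, 14.7 and 14.5 at 1 h and 2.60, 2.30 and 2.69 at 12 h, a 12 h difference of -2.20 of which 2.93% was present at 1 h. Chst10, the sulfotransferase of the HNK-1 epitope, was at 17.4, 16.9 and 17.4 FPKM at 0 h, 16.4, 16.5 and 17.6 at 1 h and 6.13, 5.82 and 5.60 at 12 h. Siae, which removes acetyl groups from sialic acid, was at 15.2, 15 and 14.4 FPKM at 0 h, 12.1, 11.5 and 11.4 at 1 h and 6.50, 5.89 and 5.66 at 12 h. St6gal1 and Chst10 overlapped between 0 h and 1 h, and Siae did not. The alpha-2,3-sialyltransferase genes St3gal1 and St3gal6 rose, with 12 h differences of 0.48 ± 0.049 (SE, adjusted p = 3.98e-07) and 1.38 ± 0.072 (SE, adjusted p = 2.6e-10). St3gal2 fell, with -0.40 ± 0.044 (SE, adjusted p = 8.22e-07), and St3gal4 did not pass the test, with 0.05 ± 0.06 (SE, adjusted p = 0.476), though it did under quantile normalization. Of 55 tested glycosylation and sialylation genes, 26 were lower and 22 higher at 12 h.

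Transcription and chromatin genes numbered 12, with a median 12 h difference of -1.16. Lbh, a transcription cofactor, was at 5.34, 5.39 and 4.63 FPKM at 0 h, 2.68, 2.98 and 3.12 at 1 h and 0.966, 0.936 and 0.859 at 12 h. H2afv, which encodes a form of histone H2A.Z, was at 13.9, 12.6 and 13.3 FPKM at 0 h, 10.7, 10.3 and 9.71 at 1 h and 4.44, 5.07 and 4.40 at 12 h. Hdac9, a class IIa histone deacetylase, was at 1.88, 2.10 and 2.01 FPKM at 0 h, 2.0, 1.92 and 1.99 at 1 h and 0.379, 0.517 and 0.444 at 12 h. Lbh was already lower at 1 h, and Hdac9 was not. H2afz, the other H2A.Z gene, fell, with a 12 h difference of -0.30 ± 0.027 (SE, adjusted p = 1.02e-07) from 609 FPKM. Ptms, the acidic nuclear protein parathymosin, was at 114, 102 and 105 FPKM at 0 h, 99.6, 102 and 103 at 1 h and 40.2, 39.1 and 38.1 at 12 h. Maged1 was at 75.6, 69.4 and 68.2 FPKM at 0 h, 60.9, 60.4 and 60.5 at 1 h and 31.5, 31.8 and 32.9 at 12 h. Pax3, a paired-box factor of neural crest and muscle, was at 3.08, 3.33 and 3.52 FPKM at 0 h, 3.56, 3.14 and 3.44 at 1 h and 1.02, 1.0 and 1.0 at 12 h. At 0 h Ptms and Maged1 were among the 5 most abundant of the 108, and Pax3 was low but steady. Means at 0 h and 12 h were 12.6 and 5.49 FPKM for Nab2, a corepressor of EGR factors, 3.15 and 0.814 for the repressor Nacc2, 3.46 and 0.958 for Bcl9l, a beta-catenin coactivator, and 3.47 and 1.03 for Eya4. Pbxip1 went from 8.64 to 3.22 FPKM and Calcoco1 from 6.74 to 2.77. Of 52 tested histone and chromatin genes, 38 were lower and 7 higher at 12 h, and of 80 tested transcription factors 50 were lower and 17 higher.

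The 9 genes of the cytoskeleton, membrane repair and trafficking had a median 12 h difference of -1.11. Ahnak, a very large scaffold protein under the plasma membrane, was at 23.4, 22.6 and 22.2 FPKM at 0 h, 16.7, 16.5 and 17.6 at 1 h and 9.05, 9.34 and 9.14 at 12 h. Fhod1, a formin that bundles actin, was at 9.33, 9.07 and 9.34 FPKM at 0 h, 7.03, 7.53 and 7.42 at 1 h and 3.28, 3.84 and 3.03 at 12 h. Rapsn, known for clustering acetylcholine receptors in muscle, was at 3.56, 3.63 and 3.62 FPKM at 0 h, 3.68, 3.54 and 3.53 at 1 h and 0.712, 1.09 and 0.930 at 12 h. Ahnak and Fhod1 had 1 h libraries below all those at 0 h, and Rapsn did not. Capn5, a calpain protease, went from a mean of 11.7 to 4.17 FPKM, Stx2, a syntaxin of membrane fusion, from 12.9 to 5.61, and Kank2 from 6.27 to 2.44. Tns1, which encodes tensin, and Myom3, a myomesin, were low throughout, at 1.73 and 1.72 FPKM at 0 h and 0.263 and 0.258 at 12 h. Dync2li1, a subunit of the ciliary dynein, went from 6.11 to 2.56. Of 39 tested genes of the primary cilium and centrosome, 30 were lower and 5 higher at 12 h.

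For the last 12 genes no role was assigned or it lay outside the groups above, and their median 12 h difference was -1.18. Tcp11l2 was at 20.2, 20.2 and 21.4 FPKM at 0 h, 15.3, 15 and 15.1 at 1 h and 4.87, 5.01 and 5.33 at 12 h. Rcbtb2 was at 12.4, 11.5 and 11.7 FPKM at 0 h, 8.01, 8.64 and 8.02 at 1 h and 3.56, 3.47 and 3.44 at 12 h. Apobec1, a cytidine deaminase that edits RNA, was at 15.4, 14.6 and 14.6 FPKM at 0 h, 9.57, 9.80 and 9.02 at 1 h and 6.28, 6.22 and 5.76 at 12 h, with 51.6% of its fall at 1 h. These 3 had their 3 groups fully apart. The others, with 12 h differences from -1.33 to -1.02, were Dnajb14, Tmem238, Ankle1, Spaca9, Tmem51, Gm572, Wdr90, Scrn3 and Fbxw4.

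**Figure D4:**
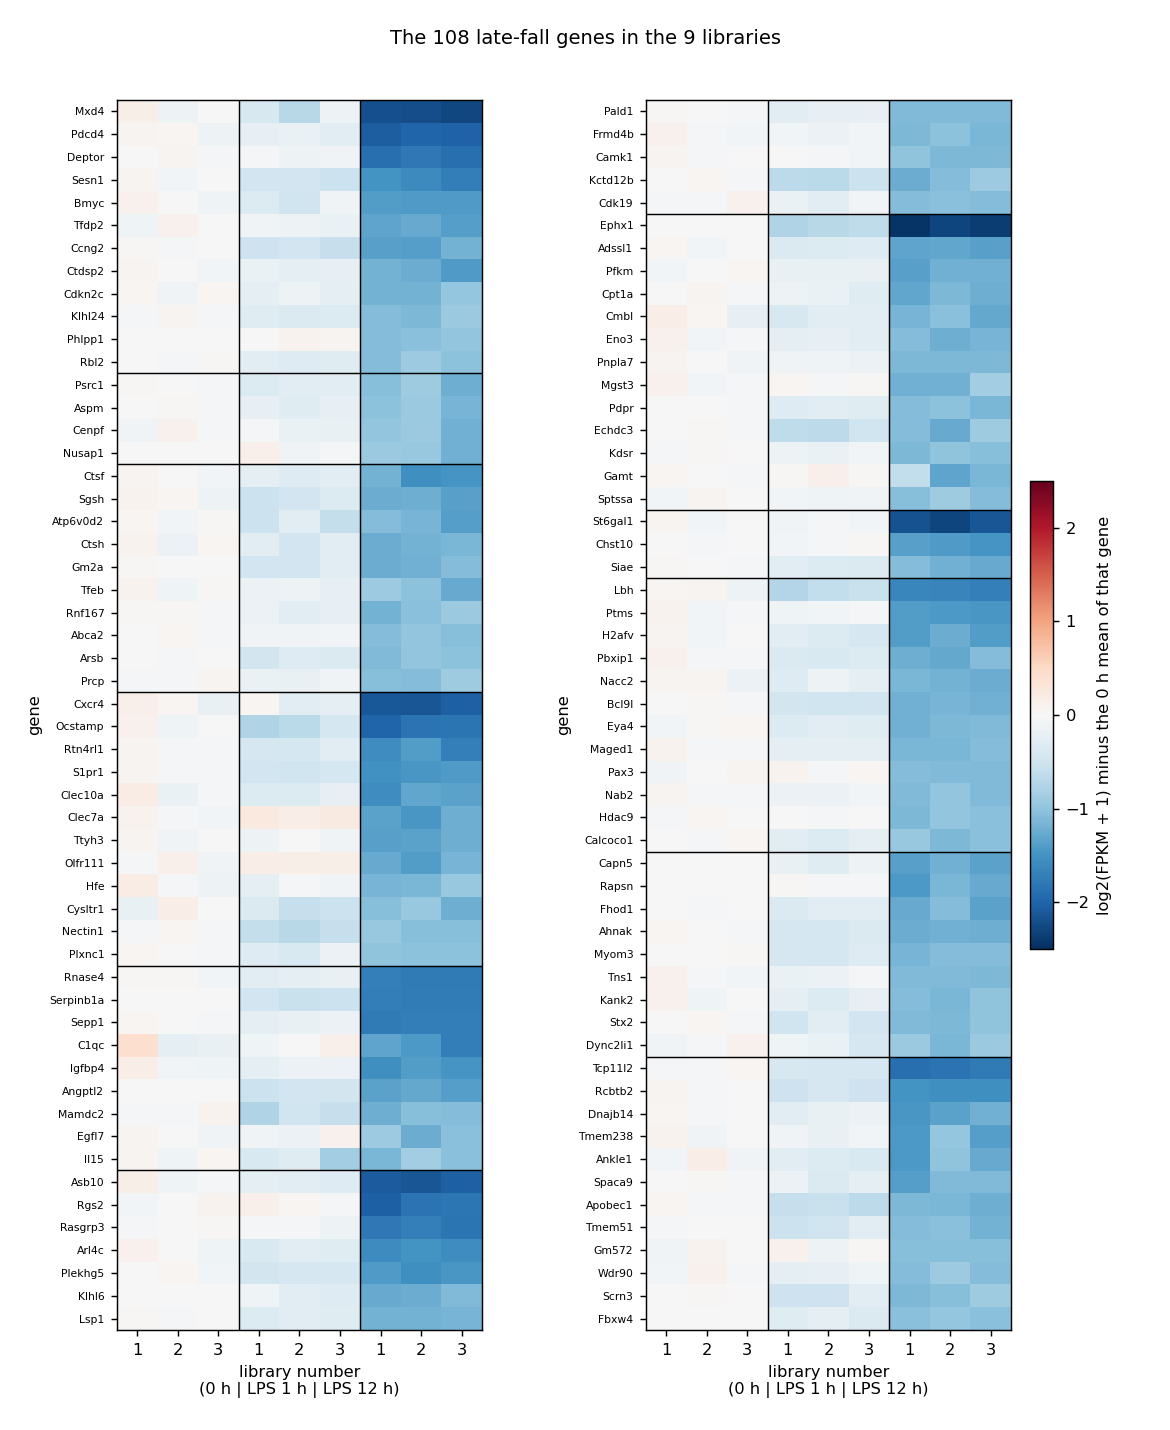
Heat map of the 108 late-fall genes (rows, in role groups separated by lines) in the 9 libraries (columns); color is log2(FPKM + 1) minus the 0 h mean of the gene, blue lower and red higher. The 1 h columns are pale blue in most genes, 81 having all 1 h libraries below those at 0 h, and are bluest in Ephx1, Lbh, Kctd12b, Nectin1 and Ocstamp; Clec7a and Olfr111 are slightly red at 1 h, and all 12 h columns are blue.

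**Figure D5:**
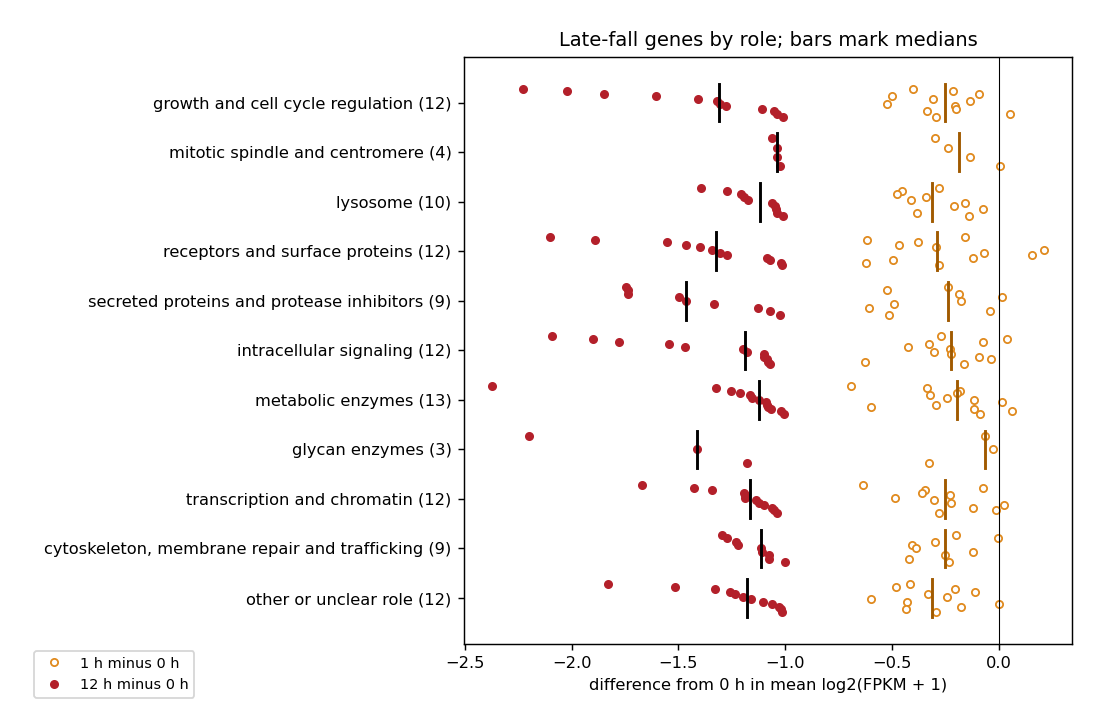
The 1 h difference (open circles) and the 12 h difference (filled circles) of each late-fall gene in mean log2(FPKM + 1), in 11 role groups with the number of genes in brackets and bars at group medians. Median 12 h differences lie between -1.47 for secreted proteins and -1.04 for mitotic genes, and median 1 h differences between -0.31 and -0.06.

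The annotation deposited with the table was also counted over the set. A pathway label was present for 49 of the 108 genes (45.4%), against 42.7% of tested genes. A transcription factor family was given for 4 (3.70%), Mxd4, Tfeb, Pax3 and Tfdp2, against 6.54%. The extracellular space term covered 12 genes (11.1%, against 3.97% of tested genes), the lysosome term 10 (9.26%, against 3.05%) and hydrolase activity 17 (15.7%, against 9.78%). Chemotaxis covered Cxcr4, Cysltr1, Lsp1 and S1pr1 (3.70%, against 0.638%), and the spindle term covered Bmyc, Cenpf, Nusap1 and Psrc1 (3.70%, against 0.673%). Large terms below the share of tested genes were nucleus (35.2%, against 43.5%), protein binding (24.1%, against 33.0%), cytosol (14 genes, against 24.2% of tested genes), metal ion binding (9.26%, against 17.7%) and nucleotide binding (5.56%, against 12.5%). The terms were picked after their shares were seen and are given without a test.

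Of 26 tested homeostatic microglia and macrophage genes, 16 were lower and 8 higher at 12 h, with a median of -0.46. Rgs2 was the only late-fall gene in that list, from which Ltc4s also met the thresholds but had been left out by name. At 1 h, 18 were lower and 3 higher. Reads shared by copies or by related genes of similar sequence could be divided between them by the authors' counting. To that extent the values of Clec10a and Mgl2, Olfr111 and other olfactory receptor genes, and Serpinb1a and its neighbouring relatives are uncertain. The same holds for Bmyc and Myc, and for H2afv and H2afz, as far as they share sequence.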

How the data were processed

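RNA was measured in 9 libraries of BV2 cells, 3 untreated, 3 with LPS for 1 h and 3 with LPS for 12 h. Per the labels' protocols, TRIzol was used to extract RNA and a stranded mRNA kit to prepare libraries. The submitters' processing notes list the tools HTSeq, Cufflinks, HISAT2, Trimmomatic and DESeq, with no version and no role, and the human build GRCh38 beside mouse gene symbols. The build behind the values is therefore unclear, and coordinates here come from RefSeq on GRCm38.p6 only, matched by gene ID.

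The authors deposited 1 table of FPKM per gene. Per the file headers, further columns hold a p-value, a q-value, a score that ranks genes, and a flag that is 1 in 100% of its 6462 rows, none of which were used to call genes. Relative depths, read from the steps between values of low genes, were 1.081 to 1.17 times that of the first untreated library; the modes rest on 5 to 28 genes each, and the exact depth is unknown.

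FPKM was compared as log2(FPKM + 1), with a pseudocount of 1. Genes with a mean of at least 1 FPKM were tested (5643, with 819 left out) with limma 3.58.1 in R 4.3.3, 1 mean per group and eBayes with trend, and called at a Benjamini-Hochberg adjusted p under 0.05 over all tested genes. The fit was tested on simulated data without the selection that the listed genes had passed. Because they had been selected for a difference among these same libraries, the adjusted p may not hold its stated error rate. Members were given no test, because the rule used their differences.

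The members and the 21 functional lists (1720 entries) were chosen with earlier results of these data known. The role groups, the relatives, the pathways shown and the final motif letters (with the FOXO and TCACGTG motifs added and the PU.1 motif shortened) were chosen after values were seen. Genes were named by a rule. It takes the 20 largest falls with at least 5 FPKM at 0 h and up to 4 members of each list. The 5 highest 1 h differences, the 5 highest levels and 3 genes on each side of each threshold were added. Most of these were given library by library. Psrc1, Plxnc1, Echdc3, Dync2li1, Kctd12b, Myom3, Cmbl, Tns1 and the genes outside the thresholds were given by means or differences only. Others were named to account for the whole set, after their values were seen.

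Alternatives were pseudocounts of 0.1 and 0.5, no filter, a mean of at least 5 FPKM, quantile normalization, median-of-ratios scaling, other thresholds, eBayes without trend, only the 6 libraries compared, a replicate block and each library left out in turn. The correlations of same-numbered libraries' deviations ranged from -0.067 to 0.128, which cannot settle whether library numbers pair the libraries.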

Additional observations from a re-analysis of the deposited data

How the results depend on the processing

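The number of late-fall genes, 108, followed the settings of the rule. It was 231 with a pseudocount of 0.1 (104 shared), 161 with 0.5 (105 shared), 111 with no filter, 69 with a mean of at least 5 FPKM, 96 with quantile normalization (82 shared) and 107 with median-of-ratios scaling. It was 66 with a 1 h threshold of -0.3, 262 with a 12 h threshold of -0.8 and 19 with -1.5, and 104 to 113 without 1 library. Smaller pseudocounts lowered the median 12 h difference of the 108 genes to -1.44 (0.1) and -1.33 (0.5); it was -1.19 to -1.16 without 1 library. Without the third 12 h library Aspm, Cenpf, Nusap1, Psrc1, Cysltr1, Gamt, Sptssa, Tfeb and Wdr90 no longer met the rule, the most lost with any 1 library left out (0 to 9 genes). Rbl2 and Prcp left without the first 12 h or the third untreated library, with Dync2li1 without the latter, and Fbxw4, Il15, Rnf167, Scrn3 and Sptssa also left without the former. Without the second 12 h library Calcoco1, Dync2li1, Echdc3, Egfl7, Gamt, Prcp and Scrn3 left. Cenpf, Cysltr1, Nectin1, Sptssa and Wdr90 left without the second untreated library, and Gamt, Hfe, Il15 and Plxnc1 without the first. Ephx1 left without the third untreated library, and Ephx1 and Ocstamp without the third 1 h library. Ephx1, Kctd12b and Lbh left with both smaller pseudocounts, and Mamdc2 with 0.1.

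Under quantile normalization the 12 h difference turned to -0.12 for Adss (adjusted p = 0.00619), -0.074 for Atp6v0d1 (adjusted p = 0.0398), -0.17 for Ctsl (adjusted p = 0.000118), -0.024 for Cdkn2a (adjusted p = 0.537), -0.053 for Max (adjusted p = 0.168) and -0.11 for Eno1 (adjusted p = 0.121), all by limma; the cause was not tested. The median of all tested genes moved by less than 0.1 under every scaling.

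Leaving out 1 library gave 2245 to 2290 genes lower and 2196 to 2334 higher at 12 h against 0 h, 1749 to 1987 lower and 1207 to 1363 higher at 1 h against 0 h, 2408 to 2462 lower and 2268 to 2369 higher at 12 h against 1 h, and 471 to 478 lower among the functional lists. With the replicate block the counts were 2282 and 2309, 1954 and 1338, 2453 and 2354, and 477. No other setting moved these counts by more than 1.5 times. The unknown depth limits what can be said of genes under 1 FPKM.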
